A study of Mus musculus with 2 samples.

Results

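The Mir26 family comprises the microRNA genes Mir26a-1, Mir26a-2 and Mir26b, which were taken by gene name from the 2202 microRNA genes counted in the left cerebral cortex of 2 mice. All 3 genes were found, and all 3 were detected, meaning that each stood at 10 CPM (a gene's counts scaled to a library total of 1000000) or more in both mice. The animals were female, 36 days old and of the hybrid strain B6CASTF1/J, an F1 cross that carries B6 and CAST alleles, and no treatment, allele or second tissue is named for either. Each mouse gave 1 short RNA library, and the pair forms a single group, so the design compares no conditions. The labels number the animals separately under a shared donor code, and p-values between the libraries measure counting error alone.

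A microRNA is cut from a hairpin RNA, and either arm of the hairpin, named 5p or 3p, can be loaded into a silencing complex. It pairs with target messenger RNAs mainly through bases 2 to 8 of its 5′ end, the seed. The miR-26 microRNAs are known from brain and many other tissues, and their targets include Ezh2, a histone methyltransferase gene. The host genes encode small C-terminal domain phosphatases, which act on RNA polymerase II and are known as parts of the REST complex that silences neuronal genes in other cells. In zebrafish, miR-26b is known to repress the mRNA of a host gene of this family during neurogenesis.

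The mature sequences show what the gene counts can and cannot tell apart. They are from RefSeq on GRCm38.p6, the assembly also called mm10, with the seed in capitals and each arm written 5′ to 3′. All 3 genes matched by symbol.
miR-26a-5p (Mir26a-1 and Mir26a-2): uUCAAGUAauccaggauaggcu
miR-26b-5p (Mir26b): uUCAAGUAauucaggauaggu
miR-26a-1-3p (Mir26a-1): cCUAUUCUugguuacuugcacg
miR-26a-2-3p (Mir26a-2): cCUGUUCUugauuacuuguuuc
miR-26b-3p (Mir26b): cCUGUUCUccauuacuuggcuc

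The 5p arms of Mir26a-1 and Mir26a-2 were identical over all 22 bases. The 5p arm of Mir26b, of 21 bases, differed from them at 2 of 21 positions, C11U and C21U, counted from 1 at the 5′ end with the miR-26a base first. Both differences lay outside the seed, so all 3 genes have the 5p seed UCAAGUA, and no mature sequence of another gene in the RefSeq table had it. The 3p arms were less alike. Between Mir26a-1 and Mir26a-2 they differed at 6 of 22 positions, 1 of them in the seed (A4G), while Mir26a-2 and Mir26b had the same 3p seed and differed at 4 positions further along. The 3p seed CUGUUCU was also found in miR-7039-3p and miR-6932-3p, whose genes had at most 4 counts in either mouse, against 54 or more in each mouse for Mir26a-2 and Mir26b.

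The whole hairpins, with both mature arms in capitals, show where a read can be placed at a single gene.
Mir26a-1: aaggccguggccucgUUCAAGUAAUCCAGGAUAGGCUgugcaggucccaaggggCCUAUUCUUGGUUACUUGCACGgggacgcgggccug
Mir26a-2: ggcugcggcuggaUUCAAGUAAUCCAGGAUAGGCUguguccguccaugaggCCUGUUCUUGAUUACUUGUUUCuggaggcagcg
Mir26b: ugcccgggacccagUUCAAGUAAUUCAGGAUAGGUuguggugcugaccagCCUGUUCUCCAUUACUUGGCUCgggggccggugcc

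Mir26a-1 and Mir26a-2 shared a run of 25 bases, which begins at the first base of the 5p arm and goes 3 bases past its end. Of the 20-base windows in the hairpin, 6 of 71 in Mir26a-1 and 6 of 65 in Mir26a-2 also occurred in another annotated hairpin, and all of these fell in that run. Mir26b had none in 66 windows, and its longest run in another hairpin was 11 bases. In these tables a read with several mapping places was given to no gene, and such reads were 50.9% of the mapped reads in mouse 1 and 51.2% in mouse 2. The full miR-26a-5p sequence fits both hairpins, so the counts of Mir26a-1 and Mir26a-2 leave out any read of it that was placed at both. Their 3p arms each occurred in 1 annotated hairpin, as did both arms of Mir26b. The counts are per gene, so the arm from which a counted read came is unknown.

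**Figure D1:**
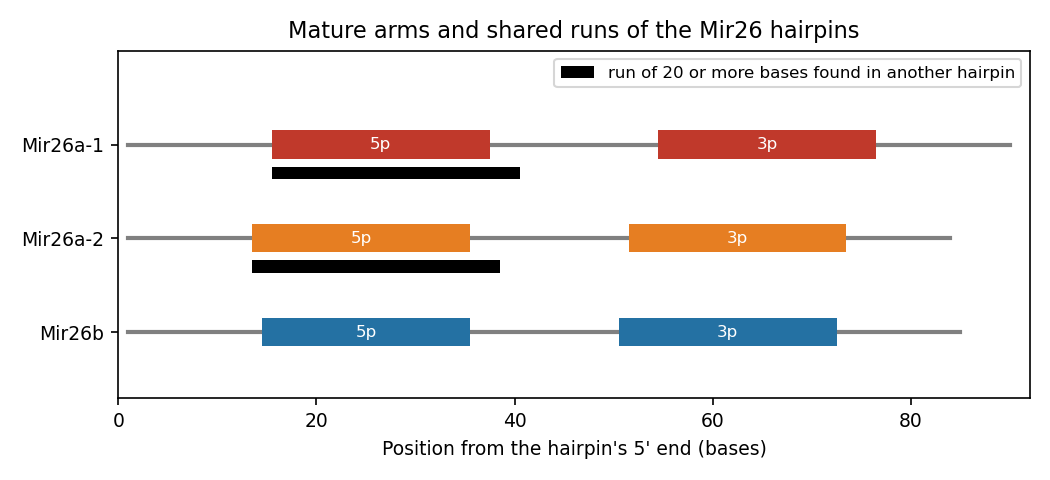
Map of the 3 hairpins, with position in bases from the 5′ end on the horizontal axis; coloured boxes are the mature arms and black bars are runs of 20 bases or more that occur in another annotated hairpin. The black bars cover the whole 5p arm of Mir26a-1 and Mir26a-2 and are missing from Mir26b.

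Beyond the arms the hairpins were similar in size and fold. They were 90 bases long in Mir26a-1, 84 in Mir26a-2 and 85 in Mir26b, with a GC content of 60.0%, 53.6% and 58.8%, against a median of 50.9% for the genes tested between the mice. The predicted minimum free energy was −49.4 kcal/mol for Mir26a-1, −44.5 kcal/mol for Mir26a-2 and −43.5 kcal/mol for Mir26b, with 64 to 68 paired bases. Aligned end to end, Mir26a-1 and Mir26a-2 were identical in 72.5% of alignment columns, Mir26a-1 and Mir26b in 68.5%, and Mir26a-2 and Mir26b in 66.3%.

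All 3 genes lay inside a phosphatase gene of the Ctdsp family on its own strand, by the GENCODE M21 annotation of mm10. Mir26a-1 (ENSMUSG00000065513.1, chr9:119031796-119031885, plus strand) lay in intron 5 of 7 of the Ctdspl transcript Ctdspl-201, 1543 bases after the exon before it and 1650 bases before the next. Mir26a-2 (ENSMUSG00000065430.1, chr10:126995530-126995613, plus strand) lay in intron 5 of 7 of the only annotated Ctdsp2 transcript that holds it wholly inside an intron, 241 bases before the next exon. The last base of its hairpin was also the first base of exon 1 of 2 other Ctdsp2 transcripts. Mir26b (ENSMUSG00000065468.1, chr1:74394310-74394394, plus strand) lay in intron 4 of 6 of Ctdsp1-201, an intron of 564 bases against 1946 for Mir26a-2 and 3283 for Mir26a-1. Ctdsp2 held another annotated microRNA gene, Mir546, which had 0 counts in both mice, and the related gene Ctdspl2 held none. A count of 0 leaves room for as many as 3 counts, a level of 1.55 CPM for mouse 1 and 1.61 for mouse 2. Levels of the host mRNAs were not analysed here.

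Mouse 1 gave 1930234 sense-strand counts over the microRNA genes and mouse 2 gave 1863876. CPM is scaled to these totals. On the strand opposite to the Mir26 genes there was 1 count in all, at Mir26b in mouse 1. No molecular identifiers are named, so the floors and intervals given here cover counting error only. The list of neuronal microRNA genes held Mir128-1, Mir139 and Mir132. It was chosen with earlier results of these data known, so it does not test the tissue label. All 3 were detected and together held 178179 CPM in the first animal and 174572 CPM in the second. Within that sum Mir139 was lower in mouse 2 (132003 and 92535 CPM) and Mir132 was higher (29894 and 64860 CPM).

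Mir26b was the most counted gene of the family in both mice. It was counted 12479 times in mouse 1 and 11676 times in mouse 2, or 6465 and 6264 CPM (6365 ± 142 CPM, SD, n = 2), and stood at rank 29 and rank 36 of the 2202 genes. Mir26a-1 was counted 52 times in mouse 1 and 382 times in mouse 2, at 26.9 and 205 CPM, at rank 264 and rank 178. Mir26a-2 was counted 54 times in mouse 1 and 223 times in mouse 2, at 28.0 and 119.6 CPM, at rank 259 and rank 201. In each mouse Mir26b therefore lay far above both Mir26a genes. Its values in the mice lay close together, while both Mir26a genes were low in mouse 1 and higher in mouse 2. Over the mice the Mir26a means had an SD near or above their size, at 115.9 ± 125.9 CPM for Mir26a-1 and 73.8 ± 64.8 CPM for Mir26a-2 (SD, n = 2).

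**Figure D2:**
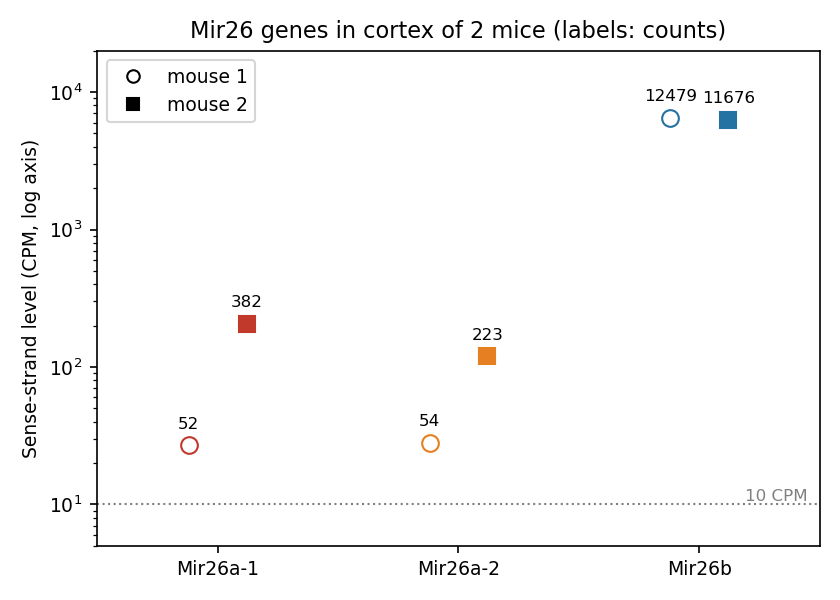
Sense-strand level of each gene in CPM on a log axis, with an open circle for mouse 1, a filled square for mouse 2 and the raw count above each point; the dotted line marks 10 CPM. Mir26b lies at 6465 and 6264 CPM, and the Mir26a genes lie at 26.9 and 28.0 CPM in mouse 1 and above 100 CPM in mouse 2.

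A microRNA read covers a mature molecule rather than a stretch of the hairpin, so counts were compared between the genes directly and also per hairpin base. By counts, Mir26b stood 240.0-fold above Mir26a-1 in mouse 1 (95% Clopper-Pearson interval 183 to 322) and 30.6-fold above it in mouse 2 (27.6 to 33.9). Per hairpin base these ratios were 254-fold and 32.4-fold. Over Mir26a-2, Mir26b stood 231-fold by counts in mouse 1 (177 to 308) and 52.4-fold in mouse 2 (45.9 to 60.0), and per hairpin base 228-fold and 51.7-fold. The ratios to each Mir26a gene thus differed between the libraries by more than counting error. They do not give the relative amounts of miR-26a and miR-26b, because any reads of miR-26a-5p placed at both hairpins are missing from the Mir26a counts.

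The Mir26a genes stood close to each other in mouse 1 but not in mouse 2. Mir26a-1 held 49.1% of their joint counts in mouse 1 (52 of 106, interval 39.2% to 59.0%) and 63.1% in mouse 2 (382 of 605, interval 59.2% to 67.0%). The interval of mouse 1 includes equal counts and that of mouse 2 does not. The intervals for the mice do not overlap, by a narrow margin. Per hairpin base the ratio of Mir26a-1 to Mir26a-2 was 0.899 in mouse 1 and 1.60 in mouse 2. The order of the levels was therefore Mir26b first in both mice, with the Mir26a genes no further apart than counting error in mouse 1 and Mir26a-1 above Mir26a-2 in mouse 2.

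Because Mir26b held nearly all of the family's counts, the sum of these counts hardly moved. Any read of miR-26a-5p placed at both Mir26a hairpins is missing from it. The sum and the shares thus describe the counted reads, mainly those of Mir26b, and not the total of miR-26a and miR-26b. Mir26b was 99.2% of the 12585 family counts in mouse 1 (interval 99.0% to 99.3%) and 95.1% of the 12281 in mouse 2 (94.7% to 95.4%). The 3 genes together made up 0.652% of the sense total of mouse 1 and 0.659% of that of mouse 2, or 6520 and 6589 CPM. The Mir26a genes alone summed to 54.9 CPM in the first animal and 325 CPM in the second.

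Between the libraries, Mir26a-1 and Mir26a-2 were called higher in mouse 2, and Mir26b was not called. A gene was called when it differed by at least 2-fold with an adjusted p under 0.05, by a two-sided exact binomial test of its counts against edgeR's TMM library sizes, adjusted over the 324 genes with a mean of 10 CPM or more. All 3 Mir26 genes were tested and 2 were called. Of the 324 genes 19.4% were called, 14.2% as higher in mouse 2 and 5.25% as higher in mouse 1. With a linear trend on hairpin GC content removed, the split of all calls changed from 46 higher in mouse 2 and 17 higher in mouse 1 to 38 and 29, and both Mir26a calls held. Each mouse has 1 library, so the animal and its library preparation cannot be told apart, and the test compares these 2 libraries and no condition.

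Mir26a-1 was 7.36-fold higher in mouse 2, a log2 ratio of 2.88 (95% counting interval 2.46 to 3.33, adjusted p = 8.11e-63 by the exact test). Only Mir31 (3.95) and Mir301 (−3.34) had a larger absolute log2 ratio among the 324 genes. Mir26a-2 was 4.14-fold higher in mouse 2, a log2 ratio of 2.05 (interval 1.61 to 2.51, adjusted p = 2.64e-25 by the exact test), which placed it at rank 13 by size. Mir26b had a log2 ratio of −0.09 (interval −0.13 to −0.06, adjusted p = 9.39e-07 by the exact test), or 1.07-fold lower in mouse 2. Its interval excludes 0 by counting error, but the difference lies far under 2-fold, and only 33 of the 324 genes had a smaller absolute log2 ratio. The median over all tested genes was 0.53 in absolute log2 ratio, and the common biological coefficient of variation by edgeR was 0.399.

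**Figure D3:**
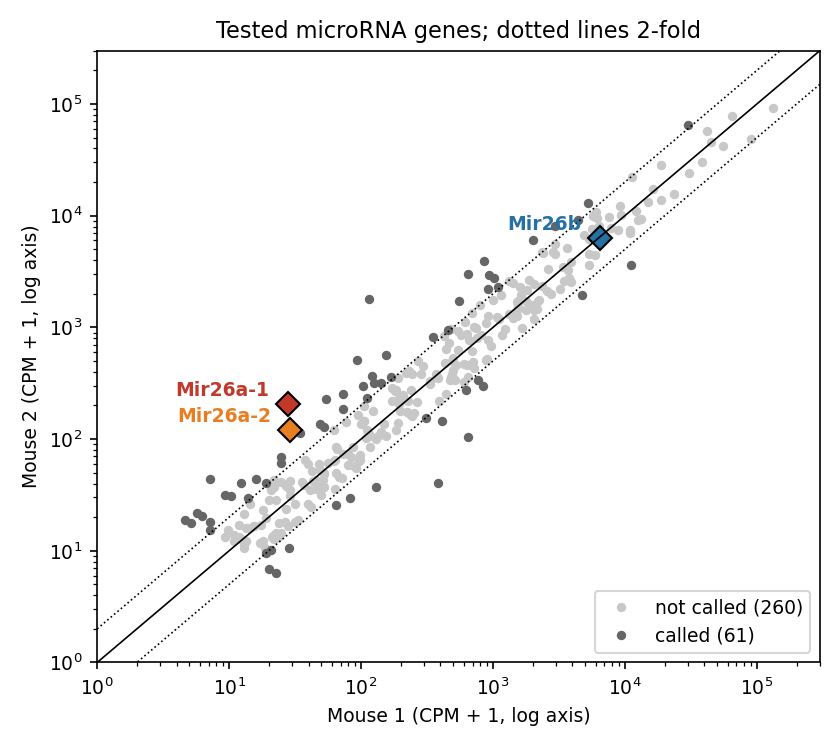
Level in mouse 2 against mouse 1 for the 324 tested genes, in CPM + 1 on log axes, with called genes in dark grey, the solid line at equal levels and dotted lines at 2-fold. Mir26a-1 and Mir26a-2 lie above the upper dotted line and Mir26b lies next to the solid one.

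The share of genes called is given here by level. Among genes with a mean from 10 to below 100 CPM, where Mir26a-2 lay, 23.1% were called and 16.2% were higher in mouse 2. From 100 to below 1000 CPM, where Mir26a-1 lay, 21.0% were called and 14.3% were higher in mouse 2. At 1000 CPM and above, where Mir26b lay, 13.7% were called and 11.8% were higher in mouse 2. A call by itself was thus not rare at the levels of the Mir26a genes.

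The Mir26a genes were also set beside other genes that share a mature arm. Of the 1018 genes matched to a RefSeq mature sequence, 61 had, like Mir26a-1 and Mir26a-2, some but not all of their mature sequences in another hairpin. Of these, 34 were detected and 36 were tested, and 5 (13.9%) were called. Higher in mouse 2 (11.1%) were Mir26a-1, Mir26a-2, Mir103-2 (log2 ratio 1.85) and Mir194-2 (1.84), and Mirlet7c-1 (−1.54) was lower. Mir103-2 and Mir194-2 were not detected, at 5.18 and 8.29 CPM in mouse 1. They reached the mean of 10 CPM needed for testing only through mouse 2, which favours a call in that direction. Of the 904 genes with no shared mature sequence, as Mir26b, 250 were tested and 54 (21.6%) were called.

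Other paralogous microRNA genes, some of them in introns of related hosts, were set beside the Mir26 genes. This list held Mir103-1, Mir103-2 and Mir107 of the Pank genes, the Mir128 pair of R3hdm1 and Arpp21, the Mir218 pair of Slit2 and Slit3, Mir101a and Mir101b, and the Mir30c pair. Of its 11 genes 9 were detected, 10 were tested and 3 were called, all higher in mouse 2, namely Mir103-2, Mir107 (1.41) and Mir101b (1.19), against 14.2% called higher in mouse 2 among the 324 genes. Mir103-2, at 5.18 CPM in mouse 1, was tested only through its level in mouse 2. The median log2 ratio of the list was −0.02, against −0.00 for all tested genes.

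Copies of 1 microRNA in that list did not both differ by 2-fold where both were tested, as the Mir26a pair did, although the difference between pairs was not tested. Mir128-1 and Mir128-2 had log2 ratios of 0.03 and −0.22. Mir218-1 and Mir218-2 had −0.43 and 0.85, with adjusted p = 0.0981 by the exact test for the first. Mir30c-1 and Mir30c-2 had −0.07 and −0.36. Counts also ranged widely among genes with a shared arm. For Mir128-1, 1 of 2 mature sequences is shared and the level was 16282 CPM in the first animal and 17178 CPM in the second. At the other end, Mir103-1, which also shares 1 of 2, had 2 and 5 counts.

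**Figure D4:**
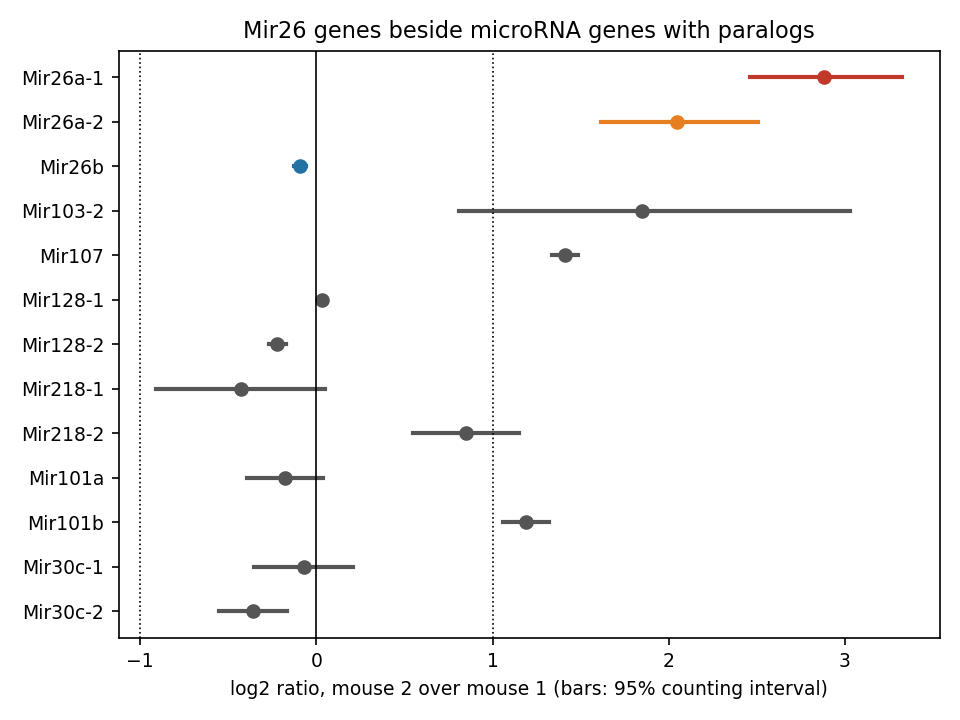
Log2 ratio of mouse 2 over mouse 1 for the Mir26 genes and the tested genes of the paralog list, with 95% counting intervals as bars and dotted lines at 2-fold. Mir26a-1 at 2.88 and Mir26a-2 at 2.05 stand to the right, while Mir26b at −0.09 stands beside 0.

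MicroRNAs known to be under REST, the complex that the host phosphatases join, were a mixed group. Of 11 genes 7 were detected and tested, and 1 was called, Mir132, an activity-induced microRNA, at a log2 ratio of 1.07. That share (14.3%) lies near the 14.2% called higher in mouse 2 among all tested genes. Mir137 (0.74), Mir29a (0.58) and Mir212 (0.16) were higher in mouse 2 by less than 2-fold, and Mir9-3 (−0.53) was lower by less than 2-fold. Mir29b-1 (0.47, adjusted p = 0.104 by the exact test) and Mir9-1 (0.00) did not pass the test. The median of these 7 was 0.47. Mir124a-1, Mir124a-2, Mir124a-3 and Mir9-2 had at most 6 counts in either mouse and were not tested. For Mir9-1, Mir9-2 and Mir9-3, 2 of 2 mature sequences also occur in another annotated hairpin. Any read placed at several hairpins is missing from their counts. The Mir124a genes were matched to no mature sequence, so sharing among them was not checked. Counts of the Mir9 and Mir124a genes thus do not give the levels of the mature microRNAs.

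By level in both mice, the genes most like Mir26a-1 were Mir26a-2, Mir374b and Mir135b, at distances of 0.77, 0.91 and 0.97 in log2(CPM + 1) over the 2 libraries. Those nearest to Mir26a-2 were Mir374b (0.27), Mir26a-1 (0.77) and Mir142 (0.79). The Mir26a genes were thus among each other's nearest neighbours. Mir26b was nearest to Mir541 (0.14), Mir674 (0.26) and Mir100 (0.34). This likeness rests on 1 value per mouse and is a description.

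Levels of microRNAs known from other cells of the cortex also differed between the libraries. The endothelial Mir126a had a level of 11276 CPM in the first animal and 22380 CPM in the second, and the mural genes Mir143 and Mir145a summed to 4589 and 9464 CPM. The oligodendrocyte genes Mir219a-2 and Mir338 summed to 2746 and 5119 CPM. Of these endothelial, mural and oligodendrocyte genes only Mir143 was called, at a log2 ratio of 1.00, barely past the 2-fold cutoff. Mir126a (0.94), Mir338 (0.93), Mir145a (0.86) and Mir219a-2 (0.78) were also higher in mouse 2 and lay under that cutoff. The single call thus does not set Mir143 apart from them. The erythroid genes Mir144, Mir451a and Mir486 summed to 742 and 153 CPM. Mir451a held most of this, at 649 and 103 CPM, and was called. Mir144 was also called lower in mouse 2 (63.2 and 24.7 CPM), while Mir486 was not called (30.6 and 25.2 CPM). The microglia and leukocyte genes Mir142, Mir223 and Mir150 summed to 1585 and 1412 CPM. Most of that last sum was Mir150, at 1531 and 1264 CPM, while Mir142 was called higher in mouse 2 (48.2 and 136.8 CPM) and Mir223 had 11 and 22 counts. Of the 14 markers, neuronal ones included, 13 were detected and none was at 0. Their part in the Mir26a difference was not tested. In bulk tissue, more cells of a type and more of a microRNA per cell cannot be told apart.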

How the data were processed

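Short RNA libraries of 2 mice were measured as microRNA-seq. The deposited values are whole-number read counts per gene, 1 table per library with 3 unnamed count columns, read here from their values as unstranded, sense and opposite-strand counts. They rest on mm10 and GENCODE M21, per the submitters' README notes. For the aligner, counter and trimming, names are not given in the sources used here. All 2202 genes matched the annotation. The 4 lines that name no gene were left out of library sizes. In mouse 1 they hold 2271144 unmapped reads, 2448356 with several places and 432362 outside genes, of 7082096 reads, and in mouse 2 they hold 1709821, 2327665 and 352119 of 6253481. Because reads and lines add up to the same total in each column, reads with several places are in no gene's count.

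From the sense counts, CPM, TMM factors (edgeR 4.0.16, R 4.3.3) and exact binomial tests with Clopper-Pearson intervals (SciPy 1.17.1) were computed. The test was checked on data simulated with counting error only, so the check does not cover spread between animals or libraries. Hairpins were folded with ViennaRNA 2.7.2 and aligned with Biopython 1.88. An exact sequence match to another hairpin was searched over the annotated hairpins only, not over the genome. Genes named were the Mir26 genes, genes in their hosts, genes with their seeds, the 3 genes nearest to each, 2 lists (REST-linked and paralogous) and cell type markers. Mir31, Mir301, Mir194-2 and Mirlet7c-1 were named after their values were seen. The Mir26 genes and the lists were chosen with earlier results of these data known. Alternatives were total counts, DESeq2 1.42.0 size factors, the unstranded column, no filter, a GC trend and other denominators.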

Additional observations from a re-analysis of the deposited data

How the results depend on the processing

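Of 35 alternative values from both mice, 31 were rated the same and 4 moved further than the SD between the mice. A level or ratio was rated the same when it kept its direction and call or moved by less than that SD. The 31 also include the numbers of genes called, which have no direction or SD. With the unstranded column the level of Mir26b was 6877 CPM and that of the 3 genes together 7083 CPM, and scaled to all reads in the tables in place of the sense total they were 1815 and 1870. That scaling also took Mir26a-1 from 115.9 to 34.2 and Mir26a-2 from 73.8 to 21.6, which is within their SD only because the SD is about as large as the mean. The log2 ratio between the mice ran from 2.88 to 2.98 for Mir26a-1, from 2.00 to 2.10 for Mir26a-2 and from −0.10 to −0.02 for Mir26b over 5 alternatives. Both Mir26a calls held in each, and Mir26b was called in none. With the GC trend removed, its adjusted p was 0.374 by the exact test. The number of genes called, 63, ran from 62 to 71. Leaving out a mouse gives the values of the other (14 values), which with 2 mice cannot move by more than the SD and say nothing of stability. Mir26a-1 was then 26.9 or 205 CPM, and Mir26a-1 over Mir26a-2 was −0.05 or 0.78 in log2, a change of sign. No ratio between the mice can be had without either. No paired analysis was possible because there is 1 group. Few counts limit the Mir26a values in mouse 1.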
